A study of Drosophila melanogaster and Drosophila arizonae and Drosophila mojavensis with 18 samples.

Results

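In larvae of the cactus fly Drosophila mojavensis, 226 genes climbed in level from one diet to the next as sugar went up and yeast went down. They were found by a fixed rule among the 15180 genes of the table, of which 7945 had a mean of at least 5 CPM (counts per 1000000, the share of a library's summed values that fell on a gene). A gene was taken when its log2(CPM + 1) was higher on the middle diet than on the low-sugar diet and higher again on the high-sugar diet, in each of 2 replicates, with at least 0.7 between the outer diets in each. These 226 genes were 2.84% of the 7945. The members were thus selected on their CPM on the diets, and those values are given below as a description and without a test.

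The series held 18 libraries of whole larvae of the last instar from D. mojavensis, D. arizonae and D. melanogaster, 6 per species. Stocks were kept on cactus and banana medium, and larvae were moved for 24 hours to a diet whose 200 ml held 8 g of sucrose (HPLS, high protein and low sugar), 20 g (EPS, equal protein and sugar) or 32 g (LPHS, low protein and high sugar). Each diet had 2 libraries in a species, labelled S1 and S2, each from pooled larvae. As sucrose went up, yeast went down, so an effect of more sugar and an effect of less protein cannot be told apart. The study used a pair of isofemale strains per species, both wild-derived, but the labels do not say that S1 and S2 are these strains, and replicate number and strain cannot be told apart. With whole larvae, fewer cells of a type and less RNA per cell cannot be told apart either. The 6 D. mojavensis libraries held 6819502 to 9910492 fragments.

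Sugar in an insect larva is taken up by the gut, passes through glycolysis and the pentose phosphate pathway, and is stored by the fat body as glycogen and triglyceride. In D. melanogaster the Mondo and Mlx transcription factors sense sugar and switch on further regulators, among them the zinc finger factor sugarbabe, while the insulin pathway holds the factor FOXO and its target Thor in check when food is rich. Thor is a 4E-BP, a protein that binds the cap-binding factor eIF4E and so restrains translation.

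Of the 226 genes, 41 carry a name in the study's function table, 35 have a D. melanogaster ortholog given there, and 185 are known here by identifier only. The 41 names come from genes that the authors had called on these same libraries, so their larger size is no independent support. Of the 50 genes looked up in the part of that table for genes higher with more sugar, 40 were members. Counts of members by list below are to be read against that share only where a list holds higher genes alone. The lists of sugar transporters, of chitin genes and of conjugating and oxidizing enzymes also hold genes from the table's part for lower genes. The other named member, GI20943, stands in the table's part for genes lower with more sugar. The median mean rise of the 41 named members was 1.76, against 1.00 for the 185 genes with an identifier only. Here and below a rise is log2(CPM + 1) on LPHS minus that on HPLS within a replicate, which understates the change of genes with few fragments. Over all 226 genes the mean of the replicates' rises ran between 0.72 and 4.0 with a median of 1.06, and it was at least 1 in 133 genes, at least 2 in 13 and at least 3 in 3. All of the 20 genes with the largest mean rise were named ones. Among the 185 genes with an identifier only, the largest mean rise was 1.76, 92 had a mean rise of at least 1, and in 178 no LPHS library overlapped with an HPLS one. The rule largely fixes that gap, which 32.9% of the 7945 genes had with LPHS higher.

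In the list of regulators of growth and sugar use, all 3 genes of the function table, 2 copies of 4E-BP and the sugarbabe ortholog, were among the 226. GI14996, the more abundant 4E-BP gene, stood at 13.5, 31.4 and 80.4 CPM on HPLS, EPS and LPHS in S1 and at 26.0, 65.1 and 133 CPM in S2. Its rises were 2.49 in S1 and 2.32 in S2, and no library of one diet overlapped with those of another. GI15007, the second 4E-BP gene, was lower throughout, with 2.69, 4.04 and 9.54 CPM in S1 and 2.15, 6.60 and 13.2 CPM in S2. Both copies thus had their lowest libraries on HPLS and their highest on LPHS. GI19975, the ortholog of sugarbabe, had 19.98, 49.8 and 81.4 CPM in S1 and 24.7, 39.7 and 67.5 CPM in S2, with rises of 1.97 and 1.42 and all 3 diets apart.

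**Figure D1:**
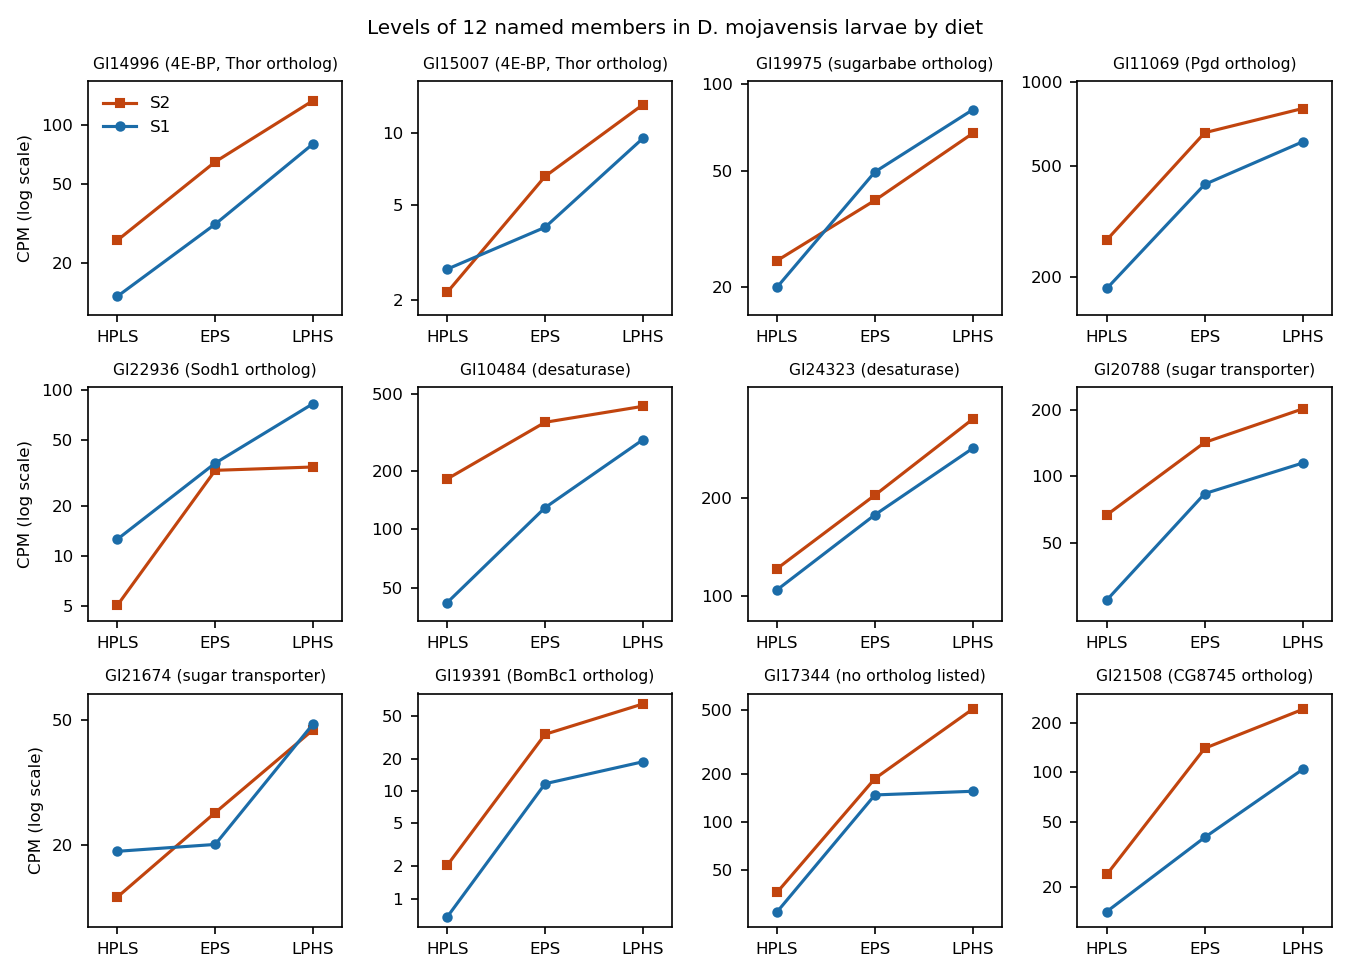
Level of 12 named members (CPM, log axis) on the 3 diets, from low to high sugar, with 1 line per replicate (squares S2, circles S1). Both lines climb from HPLS to LPHS in every panel, as the rule required, but the steps differ: the Sodh1 ortholog GI22936 in S2 had 32.7 CPM on EPS and 34.3 CPM on LPHS.

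Both genes of the pentose phosphate and polyol list were members. GI11069 is the ortholog of Pgd, which encodes 6-phosphogluconate dehydrogenase, an enzyme of the pentose phosphate pathway that yields NADPH. It was abundant, with 182, 431 and 612 CPM in S1 and 272, 660 and 806 CPM in S2, and 76.0% of its mean rise was reached on EPS. GI22936, the ortholog of the sorbitol dehydrogenase gene Sodh1, had 12.6, 36.1 and 82.5 CPM in S1 and 5.03, 32.7 and 34.3 CPM in S2. Its rises were close to each other, 2.62 in S1 and 2.55 in S2, but in S2 nearly all of the rise lay between HPLS and EPS.

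Enzymes that place double bonds in fatty acids formed another pair, and both desaturase genes of the function table met the rule. GI10484, whose ortholog given is Desat2, had 41.9, 129 and 290 CPM in S1 and 182, 356 and 431 CPM in S2. Its HPLS library of S2 was thus above the EPS library of S1, and its rises of 2.76 and 1.24 were among the most unequal of all. GI24323, the ortholog of CG9743, had 104, 177 and 284 CPM in S1 and 121, 204 and 349 CPM in S2, with near-equal rises of 1.44 and 1.52. No fatty acid synthase or acetyl-CoA carboxylase was in the function table, and those genes were not looked up here.

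Transporters, of which 2 of the 3 sugar transporter genes in the table were members, and amino acid enzymes followed. GI20788, the ortholog of CG6484, had 27.5, 83.4 and 115 CPM in S1 and 66.8, 142 and 201 CPM in S2. GI21674, the ortholog of CG4607, had 19.1, 20.1 and 48.7 CPM in S1 and 13.6, 25.4 and 46.6 CPM in S2, so that only 30.5% of its mean rise was reached on EPS, against 73.5% for GI20788. GI12353, the ortholog of the argininosuccinate lyase gene Argl, whose product forms arginine, had 154, 293 and 406 CPM in S1 and 300.1, 739 and 894 CPM in S2. GI14799, an amino acid transporter gene with the ortholog CG4991, was scarce, between 1.68 and 10.1 CPM in S1 and between 4.19 and 18.2 CPM in S2. A sulfate transporter of the SLC26 family, GI24866, stood at 36.8, 86.4 and 101 CPM in S1 and at 23.3, 47.5 and 64.6 CPM in S2, and its rises were both 1.43.

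The largest rise of all belonged to an immune gene. GI19391 is the ortholog of BomBc1, which in D. melanogaster encodes a bomanin, a short secreted peptide switched on by Toll signalling. It had 0.674, 11.7 and 18.7 CPM in S1 and 2.04, 33.7 and 64.6 CPM in S2, a 27.8-fold higher CPM on LPHS than on HPLS in S1 and a 31.8-fold higher one in S2. Those HPLS levels rested on 6 fragments in S1 and 17 in S2, so the folds are coarse, and 80.6% of the mean rise was reached on EPS. The list of immune effectors, matched on domain text, did not take in GI19391. Of its 4 genes 1 was a member, the lysozyme gene GI16640, with 14.7, 51.6 and 68.2 CPM in S1 and 32.3, 62.6 and 121 CPM in S2.

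Of the 5 secreted protease genes in the table, 4 were members, much as among its higher genes at large. GI21250, a trypsin gene with the ortholog CG8299, had 25.5, 53.5 and 97.5 CPM in S1 and 13.8, 37.3 and 121 CPM in S2. Its rise was 3.05 in S2 and 1.90 in S1, and the diets did not overlap. The astacin metalloproteases GI22596 and GI22618 had mean rises of 1.67 and 1.56, and the chymotrypsin-type gene GI24439 was the most abundant of the group, at 148, 275 and 431 CPM in S1 and 179, 310 and 463 CPM in S2.

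Of the 4 genes in the chitin list, 2 were members. GI24570, a gene with a chitin binding domain and the ortholog CG3348, had 33.3, 90.5 and 154 CPM in S1 and 41.4, 117 and 176 CPM in S2. GI17258 is the ortholog of Idgf1, an imaginal disc growth factor that resembles chitinases, and had 17.3, 42.8 and 74.9 CPM in S1 and 28.5, 47.2 and 56.8 CPM in S2. Its rise was 0.97 in S2, less than the 2.05 in S1.

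Stress and detoxification genes were few. GI11906, the ortholog of BNIP3, a mitophagy receptor, lay close to the limit of the rule in S1 with a rise of 0.71, and reached 1.79 in S2. GI14885, which carries a nuclear phosphoprotein p8 domain, known in mammals from stress responses, had rises of 0.96 and 1.88. Among UDP-glycosyltransferases, enzymes that attach sugars to small molecules, GI20954 had 1.80, 3.23 and 9.88 CPM in S1 and 0.958, 3.81 and 11.7 CPM in S2. GI20943 had rises of 1.09 and 1.64, the opposite of the study, which reports it as lower with more sugar. No cytochrome P450 was among the named members, which was all but fixed beforehand, since those of the function table stand in its part for lower genes. The 185 members with an identifier only could not be checked for one.

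Several of the largest rises came from genes outside these lists. GI17344, with no ortholog given, had 27.4, 147 and 155 CPM in S1 and 36.3, 187 and 507 CPM in S2, so the replicates were alike on HPLS and EPS and parted on LPHS. GI21508 is the ortholog of CG8745, an ethanolamine-phosphate phospho-lyase by its domain, an enzyme of phospholipid breakdown. It had 14.2, 40.1 and 104 CPM in S1 and 23.8, 140 and 241 CPM in S2. GI10121, whose domain text is acetylcholinesterase and whose ortholog is CG4757, had 0.449, 1.61 and 13.3 CPM in S1 and 1.08, 9.09 and 10.7 CPM in S2. Its HPLS values rested on 4 and 9 fragments. GI12536, a gene of unknown function with the ortholog CG16762, had 5.61, 8.58 and 43.7 CPM in S1 and 10.3, 32.3 and 53.4 CPM in S2. GI15587, the ortholog of CG15043, had 26.1, 92.8 and 149 CPM in S1 and 42.7, 93.1 and 149 CPM in S2, so that the replicates were nearly level on EPS and on LPHS.

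Signalling and cell structure were also present by single genes. Mean rises were 1.76 for GI15086, ortholog of the PDGF and VEGF related ligand Pvf1, 1.45 for GI15577, ortholog of the TNF receptor gene wgn, 1.63 for GI15320, ortholog of the PDZ protein gene Grip, and 1.44 for GI19595, ortholog of the cytoplasmic actin gene Act42A. The actin gene had 104, 125 and 249 CPM in S1 and 75.3, 140 and 235 CPM in S2. The remaining named members, GI10465, GI10883, GI10972, GI11966, GI13641, GI14619, GI17453 and GI19902, had mean rises between 1.34 and 1.88.

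By level, the members ran between 5.21 and 5708 CPM, with a median mean of 51.3 CPM, against 27.2 CPM over the 7945 genes. The 3 most abundant members had identifiers only. The first, FBgn0133284, had 4590, 6078 and 7800 CPM in S1 and 2568, 6559 and 6650 CPM in S2, and the second, FBgn0145102, had 1428, 2066 and 2772 CPM in S1 and 2240, 3663 and 3904 CPM in S2. These 3 genes held 25.7% of the summed level of the 226. Only 3 members had under 10 fragments in some library, the fewest being 4.

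Together the 226 genes took up 2.75%, 3.80% and 5.41% of the library on HPLS, EPS and LPHS in S1 and 2.63%, 4.96% and 6.23% in S2. Their summed CPM on LPHS was 1.97-fold that on HPLS in S1 and 2.37-fold in S2. Markers of larval tissues ran the other way, but all 7 of them stand in the function table as genes the authors had called lower with more sugar on these libraries, so their direction was fixed beforehand. The storage protein gene GI23074, ortholog of the fat body gene Lsp1beta, took up 4.73%, 3.84% and 1.91% of the library in S1 and 5.12%, 3.22% and 1.80% in S2. Each of the 7 was lower on LPHS than on HPLS in both replicates. The 2 fat body genes, GI23074 and the Fbp1 ortholog GI11539, summed to 18090 to 19050 CPM on LPHS, against 47340 to 51420 CPM on HPLS. Nearly all of that sum was GI23074. GI11539 alone had 0.341 and 62.9 CPM on LPHS in S1 and S2, against 60.1 and 172 CPM on HPLS. The 3 larval cuticle genes summed to 2128 to 4921 CPM on LPHS, against 7448 to 11960 CPM on HPLS. The midgut maltase gene had 43.8 to 53.4 CPM on LPHS, against 88.8 to 167 CPM on HPLS, and the prophenoloxidase gene 39.5 to 74.7 CPM, against 150.5 to 178 CPM. None of the marker genes was at 0 in any library, and their part in the rise of the 226 genes was not tested.

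**Figure D2:**
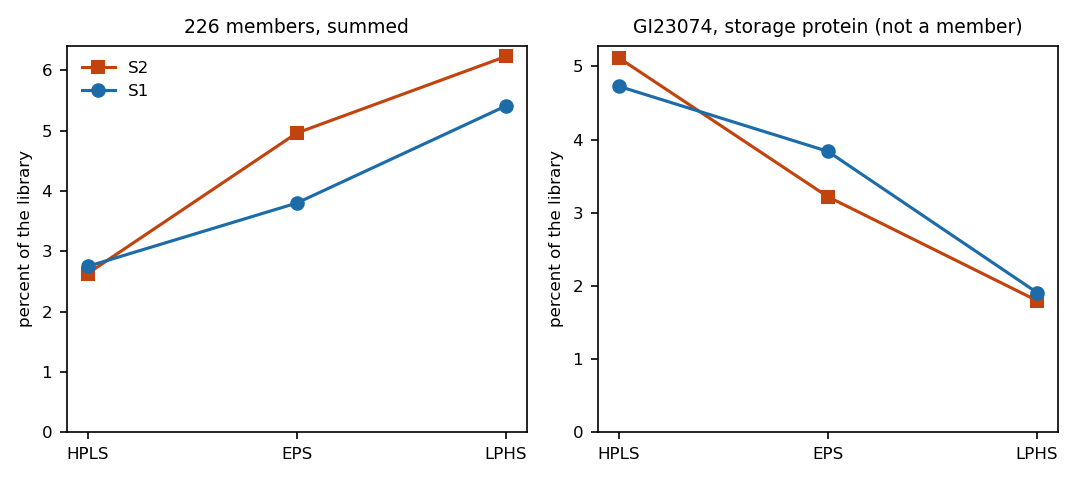
Percent of each D. mojavensis library held by the 226 members together (left) and by the storage protein gene GI23074 (right), on the 3 diets from low to high sugar, with squares for S2 and circles for S1. The members' share on LPHS was 5.41% in S1 and 6.23% in S2, while GI23074 stood at 1.91% and 1.80% there.

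The scale of the values bears on how many genes met the rule. With values divided by the column sum, the median gene of the 7945 was higher on LPHS by 0.14 in S1 and by 0.13 in S2 on the log2 scale, and with TMM scaling (trimmed mean of M-values, which sets the bulk of genes level) this median was -0.03 and -0.02. Under TMM scaling 110 of the 226 genes still met the rule, 35 of the 41 named ones among them. All 226 were still higher on LPHS than on HPLS in both replicates, which their least rise of 0.7 all but fixed. The median mean rise was then 0.89 in place of 1.06. Of the 116 members that missed the rule under TMM scaling, 20 no longer had the strict step order. The 6 named genes among the 116 were GI11906, GI13641, GI17344, GI19902, GI21674 and GI22936. The 3 members just inside the limit had a smaller rise of 0.701, 0.701 and 0.702, and the 3 genes just outside had 0.697, 0.693 and 0.692.

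The rule needed both replicates, and each alone let many more genes through. In S1 alone 523 genes climbed stepwise, 6.58% of the 7945, and in S2 alone 826, or 10.4%. Of the S1 genes 43.2% did so in S2, and of the S2 genes 27.4% did so in S1. The mirrored rule, for a stepwise fall, took 110 genes in both replicates. The rise was larger in S2 for 144 members and in S1 for 82, and the replicates' rises differed by over 1 in 10 members. The most unequal was FBgn0138016, a gene with an identifier only, with 2.69 in S2 and 0.83 in S1. GI10465, the ortholog of CG42390, followed with 2.61 and 1.07, then GI10484 with 1.24 in S2 and 2.76 in S1, GI17344 with 3.77 and 2.46, and 1 further gene with an identifier only, at 2.07 and 0.82.

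**Figure D3:**
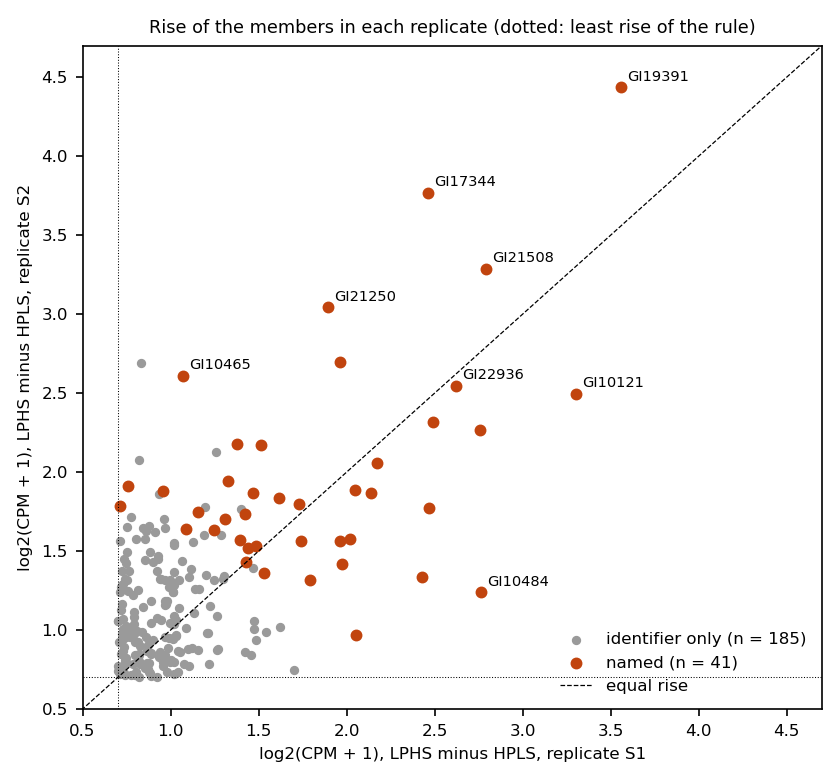
Rise of each of the 226 members, log2(CPM + 1) on LPHS minus that on HPLS, in S1 (x) and S2 (y), with the 41 named members in red and the 185 with an identifier only in grey. The dotted lines are the rule's least rise of 0.7, and GI19391 lies farthest out, at 3.56 in S1 and 4.44 in S2.

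The libraries of LPHS lay above those of HPLS without overlap in 217 of the 226 genes, which the rule largely fixes, while 32.9% of the 7945 genes had such a gap in this direction. In 118 genes all 3 diets were apart in rising order, which the rule also favours, while 7.07% of the 7945 genes were. Among the 9 genes whose LPHS and HPLS libraries overlapped, 2 were named, and in both the replicates were far apart. GI10883 had 1.24, 1.72 and 4.995 CPM in S1 and 14.0, 41.7 and 48.8 CPM in S2, and GI19902, the ortholog of CG34227, had 16.6, 18.4 and 28.8 CPM in S1 and 58.5, 130 and 223 CPM in S2.

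The middle diet was placed differently in the replicates. In S2 a median of 59.9% of a member's rise was reached on EPS, and the first step was the larger in 160 genes. In S1 the median was 43.8%, and the first step was the larger in 92 genes. Averaged over the replicates the share reached on EPS ran between 10.6% and 86.9%, with a median of 52.5%. The first step was the larger in both replicates in 69 genes, the second in both in 43, and 114 genes differed between replicates.

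Whether a member had the same overall level in S2 and S1 was not part of the rule and was tested over all genes with diet in the model (limma on log2 values, Benjamini-Hochberg over 9724 genes). Of the 226 members, 80 differed at an adjusted p of at most 0.05, 63 of them higher in S2 and 17 lower. Some of the 63, such as GI10883 and FBgn0140402, had under 5 CPM in every S1 library. They met the least mean of 5 CPM only through S2, so that filter partly fixed their place among the 63. Over all genes 13.2% differed, 6.16% higher and 7.09% lower in S2. The rule asked for the same steps in both replicates, which favours genes with little scatter around the diets, and the members were more abundant than most genes, so their larger share of calls cannot be set against the 13.2%. Leaving out the EPS library of S1 or of S2 brought the count to 37 or 42, and the count over all genes fell as well. A model without diet brought the members called to 6, and the calls over all 9724 genes from 1288 to 429.

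GI10883, which has no ortholog given, was the member farthest apart, 3.69 ± 0.25 (SE, n = 3 against 3) higher in S2 on the log2 scale, with a limma adjusted p of 9e-04. Its S1 libraries held at most 4.995 CPM, so it met the least mean of 5 CPM only through S2. That filter partly fixed its gap, and its p is not to be read as a free test. The rule also favours members whose steps are alike in S1 and S2, and thus small standard errors. None of the p-values of members given below is a free test either. GI19902 was 2.49 ± 0.22 higher (limma adjusted p = 0.0017) and the BomBc1 ortholog GI19391 1.55 ± 0.15 higher (limma adjusted p = 0.0022), in each case in all 3 diets. The argininosuccinate lyase gene GI12353 was 1.11 ± 0.11 higher (limma adjusted p = 0.0023), and the 4E-BP gene GI14996 was 0.87 ± 0.12 higher (limma adjusted p = 0.0069). Its second copy GI15007 differed by 0.25 ± 0.23 and missed the threshold (limma adjusted p = 0.50). Only 3 named members passed the test as lower in S2: GI22936, the Sodh1 ortholog, by -0.94 ± 0.23, the astacin gene GI22618 by -0.79 ± 0.15 and the sulfate transporter gene GI24866 by -0.75 ± 0.11. In all, 21 of the 41 named members differed, 18 of them higher in S2, while 13.2% of all genes differed, 6.16% higher and 7.09% lower. The named members were taken by the same rule as the others, so their share of calls cannot be set against these shares either.

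**Figure D4:**
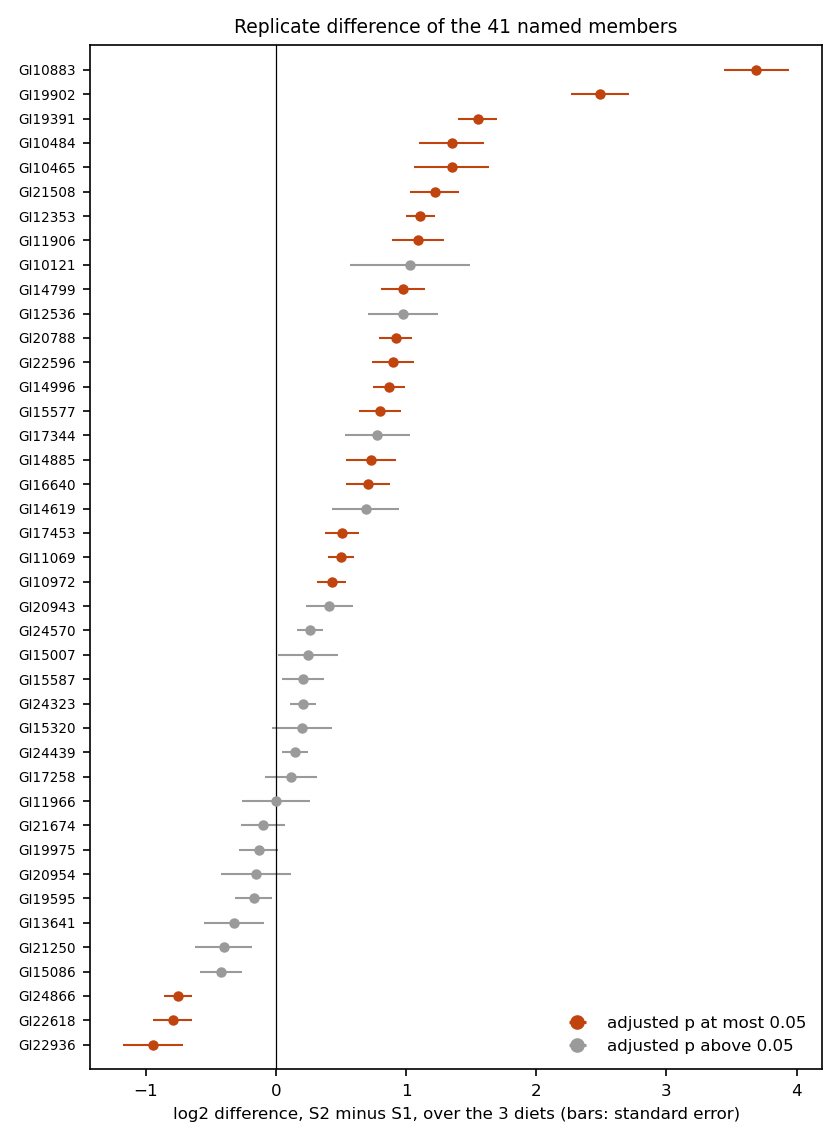
Difference in level between S2 and S1 over the 3 diets for the 41 named members (log2, S2 minus S1, with standard errors from limma), in red where the adjusted p over all genes was at most 0.05. GI10883 at 3.69 and GI19902 at 2.49 lie farthest to the right and GI22936 at -0.94 farthest to the left.

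D. melanogaster larvae on the same diets gave a readout that the rule had not used. Of the 34 distinct orthologs (both 4E-BP genes share Thor), 33 could be tested, and none passed an adjusted p of 0.05 between LPHS and HPLS (limma over 12324 genes), nor did any other gene of that species (0%). In D. mojavensis the same test called only 0.0206% of 9724 genes without a block, against 5.59% with the replicate number as a block. With 2 libraries per diet, a lack of calls without the block thus says little. At an unadjusted p under 0.05, 4 orthologs differed, against 182 of all genes (1.48%), sug, CG9743 and CG14963 being higher on LPHS and Sodh1 lower. With the replicate number as a block there were again no calls among the orthologs or over all genes, with 10 orthologs at an unadjusted p under 0.05, 7 higher and 3 lower, against 942 genes (7.64%). Neither EPS against HPLS nor LPHS against EPS gave a call. EPS against HPLS had 1 ortholog at an unadjusted p under 0.05 (0.365% of all genes) and 6 with the block (2.55% of all genes), and LPHS against EPS had 0 (0.195%) and 5 with the block (1.98%). A trend over the grams of sucrose gave none either (0% of all genes), with 5 orthologs and 327 of the 12324 genes at an unadjusted p under 0.05. With the replicate block 0.0811% of all genes passed, none of them an ortholog, and 11 orthologs and 1297 genes were at an unadjusted p under 0.05.

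Values in single orthologs nevertheless kept to the same steps in places. Of the 27 orthologs with a mean of at least 5 CPM, 3 met the stepwise rule in both D. melanogaster replicates, Pgd, CG16762 and CG9743, where 0.651% of the 8758 genes of that species did so. Pgd had 356, 589 and 670 CPM on HPLS, EPS and LPHS in S1 and 152, 211 and 394 CPM in S2. CG9743 had 48.6, 76.7 and 80.4 CPM in S1 and 21.6, 38.1 and 81.3 CPM in S2, and CG16762 had 35.4, 46.5 and 73.9 CPM in S1 and 113, 143 and 216 CPM in S2. The sugarbabe gene sug had 60.0, 57.4 and 81.5 CPM on HPLS, EPS and LPHS in S1 and 32.3, 45 and 87.6 CPM in S2, so it did not keep the step order in S1. Its fitted difference between LPHS and HPLS, 1.00 ± 0.34 (SE), was not called. In all 12 of the 27 were higher on LPHS in both replicates and 7 lower in both, where 20.1% of the 8758 genes were higher and 36.6% lower.

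Other orthologs went the opposite way or differed between replicates. Sodh1 had 75.1, 46.2 and 35.2 CPM on HPLS, EPS and LPHS in S1 and 95.5, 63.9 and 47.4 CPM in S2, a fitted difference of -1.0 ± 0.25 (SE) that was not called. Thor was at 139 CPM on LPHS, against 122 CPM on HPLS in S1, and at 136 CPM, against 307 CPM in S2, so its replicates disagreed in direction. CG34227 was at 37.4 CPM on LPHS, against 196 CPM on HPLS in S1, and at 257 CPM, against 2451 CPM in S2. BomBc1, whose D. mojavensis ortholog had the largest rise, did not exceed 0.960 CPM in any D. melanogaster library.

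**Figure D5:**
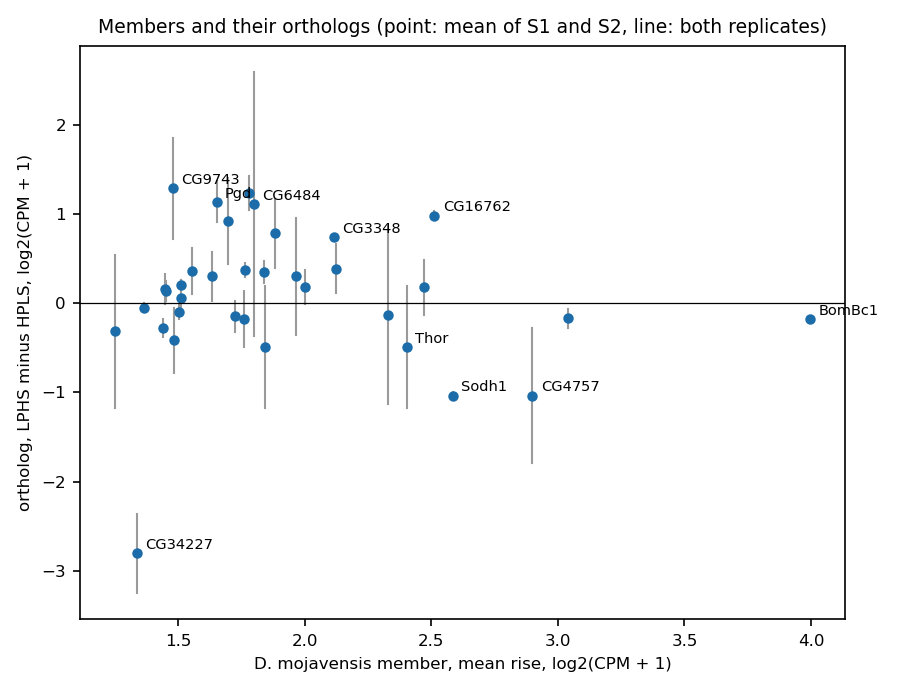
Change of the D. melanogaster orthologs, log2(CPM + 1) on LPHS minus that on HPLS (points: mean of S1 and S2, lines: span of both), against the mean rise of their D. mojavensis member. Pgd, CG9743 and CG16762 lie above 0 in both replicates and Sodh1, CG4757 and CG34227 below 0 in both, and the mean rise on the x axis was fixed to be positive by the rule.

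Genes of the same function lists that were not members could be tested on the diet change itself, though the authors had called them on these libraries and the rule had taken out most of the higher ones by the same values. How many passed and in which direction was therefore set by that choice, and the shares of all genes beside these counts are no comparison. None of these 16 genes passed the limma test without a block, where 0.0206% of all genes did. Before adjustment 13 had a limma p below 0.05, beside 1000 of all 9724 genes. On recovered fragments edgeR called none, in these or in all genes, and DESeq2 called 8, beside 197 of all 9396 genes. With the replicate number as a block 12 passed, 10 lower and 2 higher on LPHS, where 5.59% of all genes did. All 8 non-members in the list of conjugating and oxidizing enzymes, 6 cytochrome P450s and 2 UDP-glycosyltransferases, were among the 10 that fell with the block, by 1.42 (GI13002) to 4.74 (GI23350) on the log2 scale. The sugar transporter gene GI16741 fell by 2.69 and the chitin binding gene GI12405 by 1.47. The 2 that rose with the block were immune-induced peptide genes, GI19390 and GI20115. GI20115 had no fragment in either HPLS library and 3.75 CPM on LPHS in S1 and 3.30 CPM in S2.

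Of the genes that the function table lists as higher with more sugar, 10 that were looked up were not members, for want of a strict order in most. GI18936, with no domain given, had 3.59, 99.4 and 139 CPM in S1 and 1.32, 142 and 135 CPM in S2, so it was high on EPS already and did not climb further in S2. The Hsp70 family gene GI24163 had 28.0, 39.2 and 109 CPM in S1 and 12.1, 12.9 and 14.6 CPM in S2, in order in both replicates but with a rise of 0.25 in S2.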

How the data were processed

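Whole-larva poly(A) RNA was sequenced as paired reads and aligned with TopHat2 and Bowtie2 to the FlyBase genomes, and genes were quantified with Cuffdiff, as the submitters' processing notes and the study's methods state. The deposited values per gene carry the unit signal: per library they are fragments multiplied by 1 step, the scaling of the authors. In D. mojavensis 100% of values were whole multiples of the step (0.932 to 1.101) within 0.01 steps, so whole reads were recovered there, but not in D. melanogaster. D. arizonae was not analysed here, since its identifiers pair with none of the genes described.

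CPM was each column divided by its sum. The tests were made with limma 3.58.1 (trend) on log2(value + 1) after TMM scaling and filterByExpr, with Benjamini-Hochberg adjustment over all genes (R 4.3.3). edgeR 4.0.16 and DESeq2 1.42.0 were run on the recovered D. mojavensis fragments. Scripts were tested on simulated data. Columns of the authors' comparisons were not used.

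Replicate numbers were found to pair the libraries: the deviations of same-numbered libraries from their diet means correlated at 0.52 to 0.70 across pairs of diets in D. mojavensis and at 0.55 to 0.71 in D. melanogaster. The labels do not say that replicates were separate cultures, so p-values measure the spread between these libraries.

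The members and lists were chosen with earlier results of these data known. Lists were matched on the domain text of the study's function table, with a few synonyms added after its wording was seen. Names and orthologs came from the study's tables. Named genes were the members with a function or ortholog there, the 10 largest mean rises, the 3 highest levels, the 3 genes on each side of the limit and the 5 most unequal rises. A total of 2 genes are not reported here.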

Additional observations from a re-analysis of the deposited data

Results flagged for a closer look

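For 7 members with an ortholog of at least 5 CPM, the member was higher on LPHS in both D. mojavensis replicates, as the rule fixed, while the ortholog was lower on LPHS in both D. melanogaster replicates. The mean log2 change of the ortholog, LPHS minus HPLS, was -2.80 for CG34227 (member GI19902), -1.03 for CG4757 (GI10121) and -1.03 for Sodh1 (GI22936). It was -0.42 for Argl (GI12353), -0.28 for Act42A (GI19595), -0.17 for CG8745 (GI21508) and -0.09 for CG4607 (GI21674). Over the 8758 D. melanogaster genes of at least 5 CPM, 36.6% were lower on LPHS in both replicates, so 7 of 27 orthologs is not above that share. The changes of CG4607 in S2 (-0.01), CG8745 in S2 (-0.06) and Argl in S1 (-0.05) were near those of the median gene (-0.05 in S1 and -0.07 in S2). The difference between the species was not tested for any of the 7, and only the side of D. melanogaster was free to vary.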

How the results depend on the processing

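The number of members, 226, was 73 with a least rise of 1, 110 with TMM scaling and 523 to 826 without one of the replicates. It was 168 with a least mean of 20 CPM, 158 with a pseudocount of 5 and 180 when GI23074 was left out of the column sums, the last chosen after seeing the data. No named member's mean rise changed sign with TMM scaling, a pseudocount of 5 or 1 replicate alone. The 80 members that differed between S2 and S1 became 6 with the replicate number alone in the model, and 37 to 103 when 1 library was left out, with the 37 and 42 both without an EPS library. The count over all genes moved in the same direction each time. The members called were 66 to 80 under RLE scaling, a pseudocount of 5, no filter, edgeR and DESeq2. Orthologs called in D. melanogaster stayed at 0 in every alternative run, the replicate block included, for LPHS minus HPLS and for the sucrose trend. Without the block the limma test called few genes in D. mojavensis too, so a lack of calls there says little. The edgeR and DESeq2 tests were not run for D. melanogaster, whose values did not give back whole reads. The pathway genes outside the members had 0 calls in the main test, 12 with the replicate block, 1 with no filter on low values, 0 with edgeR and 8 with DESeq2, and 0 to 0 when 1 library was left out. With the block added after seeing the data, edgeR called 12 and DESeq2 15, beside 549 and 567 of all 9775 genes. The cause of these shifts was not tested. The fewest fragments of a member in a library, 4, limit the folds of the scarcest genes.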
